A study of Mus musculus with 6 samples.

Results

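The 5-HT3 receptor subunits measured here are Htr3a and Htr3b, 2 of the 40413 genes in the deposited table, picked out by symbol. They were chosen because earlier results of these data placed them among the largest falls between the states compared, so their own difference is described below without a test. The cells are N2A-A5, called acceptor cells in the labels, a mouse line of the Neuro-2a (N2A) neuroblastoma family. The 0 h group (3 libraries) holds undifferentiated cells grown in DMEM with 10% serum and 10 µg/mL blasticidin. The 96 h group (3 libraries) holds cells kept for 96 h under 10 µM retinoic acid and 1% serum, with blasticidin left out. Serum, blasticidin, retinoic acid and time changed together and cannot be told apart, and both groups come from a single named line.

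Serotonin acts on many receptors that signal through G proteins and on a single family of ion channels, the 5-HT3 receptors. A 5-HT3 receptor is a ring of subunits around a cation pore, built like the nicotinic acetylcholine, GABA-A and glycine receptors, and the family is named Cys-loop after a short loop closed by a pair of cysteines. Htr3a encodes the subunit that can form working channels alone. Htr3b encodes a subunit that reaches the cell surface together with Htr3a and changes the conductance of the channel. In the body 5-HT3 receptors serve fast serotonin signals in sensory, enteric and some cortical neurons, and mouse neuroblastoma lines are a classic material for recording their currents.

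The coding stretch of the Cys-loop is shown because it is the family's signature and lets a reader see how near the subunits are to each other and to a nicotinic relative. The capitals mark the codons of both cysteines, with 13 codons between them, and the sequences are the longest protein-coding transcripts of GENCODE M21.
Htr3a, codons 162 to 176: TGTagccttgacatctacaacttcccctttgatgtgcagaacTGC
Htr3b, codons 151 to 165: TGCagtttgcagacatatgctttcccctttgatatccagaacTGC
Chrna7, codons 150 to 164: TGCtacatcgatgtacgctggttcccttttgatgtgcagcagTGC
This pattern of cysteine codons occurred 1 time in each 5-HT3 subunit and 2 times in Chrna7, where the first is shown. Over 1294 aligned coding bases Htr3a and Htr3b were 61.4% identical, and Htr3a and Chrna7 were 61.3% identical over 1346. Unaligned bases do not enter these shares, and protein sequences were not compared. The shares therefore do not tell whether Htr3b or Chrna7 is the nearer relative of Htr3a.

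The same comparison bears on whether reads of one subunit could be counted for the other. The 60 coding bases that are most alike in the pair follow, with shared bases in capitals.
Htr3a, coding bases 357 to 416: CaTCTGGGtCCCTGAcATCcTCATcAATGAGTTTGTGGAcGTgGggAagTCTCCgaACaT
Htr3b, coding bases 324 to 383: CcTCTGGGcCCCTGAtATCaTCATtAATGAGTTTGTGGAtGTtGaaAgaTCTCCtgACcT
Even there 46 of the 60 bases matched, and the longest identical run in the coding alignment was 14 bases. The transcripts of the subunits shared 0 stretches of 31 bases. Htr3a shared none with the transcripts of any other gene in GENCODE M21, and Htr3b shared 12 of its 2364. Neither subunit thus has a near-identical copy in this annotation.

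The promoter table of RefSeq holds Htr3b and not Htr3a, so 1 of the 2 members matched. The 250 bases before the Htr3b start site and the first transcribed base are shown because both subunits moved together, at chr9:48964990-48965240 on the minus strand of GRCm38.p6, an earlier build than the mm39 of the counts.
Htr3b promoter: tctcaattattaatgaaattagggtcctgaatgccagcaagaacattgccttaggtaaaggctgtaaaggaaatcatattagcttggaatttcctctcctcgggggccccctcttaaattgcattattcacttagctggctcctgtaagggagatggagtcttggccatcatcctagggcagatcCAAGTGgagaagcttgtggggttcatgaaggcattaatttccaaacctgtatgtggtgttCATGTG
The capitals mark matches to the E-box letters CANNTG (the same on both strands), which begin 65 and 5 bases before the start site. An E-box is present in 72.3% of the 32817 RefSeq promoter windows of 300 bases. In the same 300-base window, on both strands, there was no match to the retinoic acid receptor half-site AGGTCA (in 16.3% of all windows) or AGTTCA (14.0%), the TATA box TATAAA (13.6%), the CCAAT box CCAAT (37.4%), the GC box GGGCGG (35.6%), the GATA letters AGATAA (11.2%) or the homeodomain core TAATTA (5.30%). The Htr3b window held 2 CG pairs, against a median of 7 over all windows.

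The libraries held from 16833672 to 20932343 counts, and 13705 genes had enough counts to be tested with edgeR. At an adjusted p under 0.05, 28.7% of tested genes were higher at 96 h (3927) and 28.8% were lower (3942). Scaling by library size alone shifted the median gene by -0.25 on the log2 scale, with 2409 genes higher and 5849 lower, so directions below are relative to the TMM scale. The predicted gene Gm26917 took 18.7% to 22.7% of counts at 0 h and 28.7% to 31.7% at 96 h. The line's identity markers were present: 12 of 13 sympathetic neuroblastoma genes were tested, with a summed level of 2034 to 2118 CPM at 0 h and 2073 to 2228 at 96 h (CPM, counts scaled to a common library total with TMM factors). Of those 12, 2 were higher and 8 lower at 96 h. The lineage factor Hand2 (log2 fold change -0.29 ± 0.04, SE, as for all log2 fold changes here) was among the lower, as was the noradrenaline-making enzyme Dbh (-3.18 ± 0.36).

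Htr3a had 3784, 4880 and 3865 counts in the 3 libraries at 0 h and 77, 71 and 81 counts at 96 h (replicates 1, 2 and 3). Scaled, these were 195, 208 and 202 CPM at 0 h and 5.13, 4.15 and 4.51 CPM at 96 h. Every 0 h library was high and every 96 h library low, and the lowest 0 h value was 38.1 times the highest 96 h value. The means were 202 ± 6.19 and 4.60 ± 0.495 CPM (SD over 3 libraries, here and for every mean below), a ratio of 43.9 and a log2 fold change of -5.46 ± 0.08. At 0 h the mean stood above 95.9% of tested genes and at 96 h above 26.8%, with reads in each library. The 95% counting intervals of the 96 h libraries ran from 3.24 to 6.41 CPM and overlapped one another. All intervals here hold counting error only, exact Poisson for CPM and exact binomial for the ratio of the subunits.

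Htr3b was a much rarer transcript. It had 269, 298 and 208 counts at 0 h and 3, 9 and 5 counts at 96 h, which is 13.9, 12.7 and 10.9 CPM against 0.200, 0.526 and 0.278 CPM. Here too the groups were apart, with the lowest 0 h value 20.7 times the highest 96 h value. The means were 12.5 ± 1.52 and 0.335 ± 0.170 CPM, a ratio of 37.3 and a log2 fold change of -5.18 ± 0.27. The 96 h level rests on 17 counts in all 3 libraries together, and intervals from 0.0412 to 0.998 CPM show how loosely it is fixed.

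Both members had libraries that did not overlap and were lower at 96 h, which held for 31.7% of tested genes (32.4% did not overlap and were higher, 64.1% either way), and nothing is read from this count because the genes were chosen for it. By log2 fold change Htr3a was the third lowest and Htr3b the fourth lowest of the 13705 tested genes. In a bulk sample, fewer cells that carry a transcript and less transcript per cell cannot be told apart. Markers of other cell types moved in the opposite direction over the same libraries. The summed level of 7 fibroblast markers was 6.16 to 6.46 CPM at 0 h and 17.5 to 20.5 CPM at 96 h, with Col3a1 and Lum at 0 counts. Of 4 tested members 3 were called higher (Pdgfra, Pdgfrb and Dcn), where 28.7% of all tested genes were. The call of Dcn was lost with library size only (adjusted p = 0.0673) and on leaving out 0 h replicate 1 or 2 or 96 h replicate 1 or 3 (0.0654 to 0.0944). The sum over 8 glial markers was 2.93 to 5.15 CPM at 0 h and 9.30 to 10.7 CPM at 96 h, with Aqp4 at 0 counts. Of 2 tested members 1 was called higher (Erbb3), beside the same 28.7% of all tested genes. The part of these markers in the difference of Htr3a and Htr3b was not tested.

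**Figure D1:**
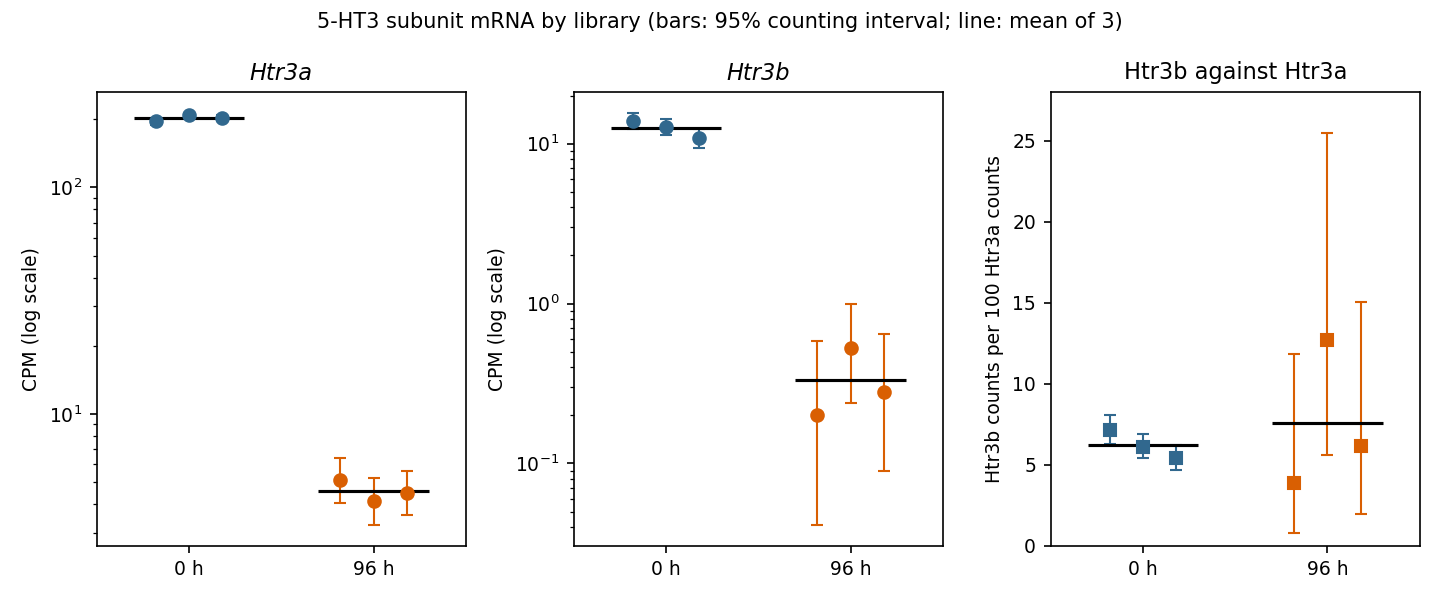
Htr3a and Htr3b levels (CPM, log axes) and Htr3b counts per 100 Htr3a counts (linear axis from 0) in each of the 6 libraries, with 95% counting intervals as bars and the mean of 3 libraries as a line. Htr3a sits at 195 to 208 CPM at 0 h and 4.15 to 5.13 at 96 h, and each 96 h interval of the subunit ratio overlaps those of all 0 h libraries.

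The balance between the subunits was less clearly different than their levels. At 0 h there were 7.11, 6.11 and 5.38 Htr3b counts per 100 Htr3a counts, and at 96 h there were 3.90, 12.7 and 6.17. The 96 h values lay on both sides of the 0 h values, so the groups overlapped, and the means were 6.20 ± 0.867 and 7.58 ± 4.56. Summed over libraries, the ratio was 6.19 (95% exact binomial interval 5.75 to 6.65) at 0 h and 7.42 (4.25 to 12.2) at 96 h. Per length of transcript, which allows levels of different genes to be compared, Htr3b stood at 5.35 ± 0.749 per 100 Htr3a at 0 h and 6.55 ± 3.94 at 96 h. A change in the ratio smaller than these intervals was not detectable at this depth.

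Among all serotonin receptors Htr3a was the main transcript in both states. It made up 93.8% ± 0.520 of the summed level per kilobase of the 14 serotonin receptor genes at 0 h and 57.5% ± 4.35 at 96 h, while the sum itself went from 103 ± 2.77 to 3.84 ± 0.399 CPM per kilobase. Of the 12 G protein-coupled receptors, Htr6 had enough counts to be tested. Htr6, which raises cyclic AMP, had 2.22, 2.21 and 3.24 CPM at 0 h and 3.73, 2.86 and 2.23 CPM at 96 h, ranges that overlap, and did not pass (log2 fold change 0.20 ± 0.28, edgeR adjusted p = 0.576). Its sign turned with library size only (-0.054) and without 96 h replicate 1 (-0.015). The other 11 had at most 9 counts in any library and 25 in all, and Htr2a and Htr2c had 0 counts in all 6. Of these 12 receptors, 0 of 1 tested was called in either direction with edgeR (DESeq2 and limma-voom gave 0 too, as did an unadjusted p under 0.05), against 57.4% of all tested genes.

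The Cys-loop family gives the nearest structural relatives. Per kilobase of transcript, Htr3a was the most abundant of the 42 Cys-loop subunit genes in every 0 h library, at 93.9, 99.8 and 97.0 CPM per kilobase, with a mean of 96.9 ± 2.98. Among the nicotinic subunits, Chrna7, which forms channels alone, stood at 13.8 ± 1.19, and Chrna3, the ganglionic subunit, followed at 11.8 ± 0.220 with no overlap. Then came its partner Chrnb2 (5.70 ± 0.439) and Htr3b (5.18 ± 0.632), which overlapped. Htr3a took 64.7% ± 1.24 of the summed level of the family at 0 h and 5.88% ± 0.484 at 96 h, and the sum went from 150 ± 3.43 to 37.5 ± 1.84 CPM per kilobase.

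At 96 h the order was different. Chrna3 was the most abundant subunit in every library, at 12.9 ± 1.01 CPM per kilobase, and Chrnb2 stood at 6.32 ± 0.153. Htr3a lay below both, at 2.46, 1.99 and 2.17 CPM per kilobase, and overlapped Chrna7, at 2.40, 2.17 and 1.93. Htr3b stood at 0.139 ± 0.0706. With coding length in place of transcript length Htr3a kept the first place at 0 h (138) and stood at 3.13 at 96 h, whereas Htr3b at 0 h (9.52) no longer overlapped Chrnb2 (24.3 ± 1.87). Coding length also turned the 0 h order of the nicotinic subunits, with Chrna3 (34.1) and Chrnb2 above Chrna7 (19.0).

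**Figure D2:**
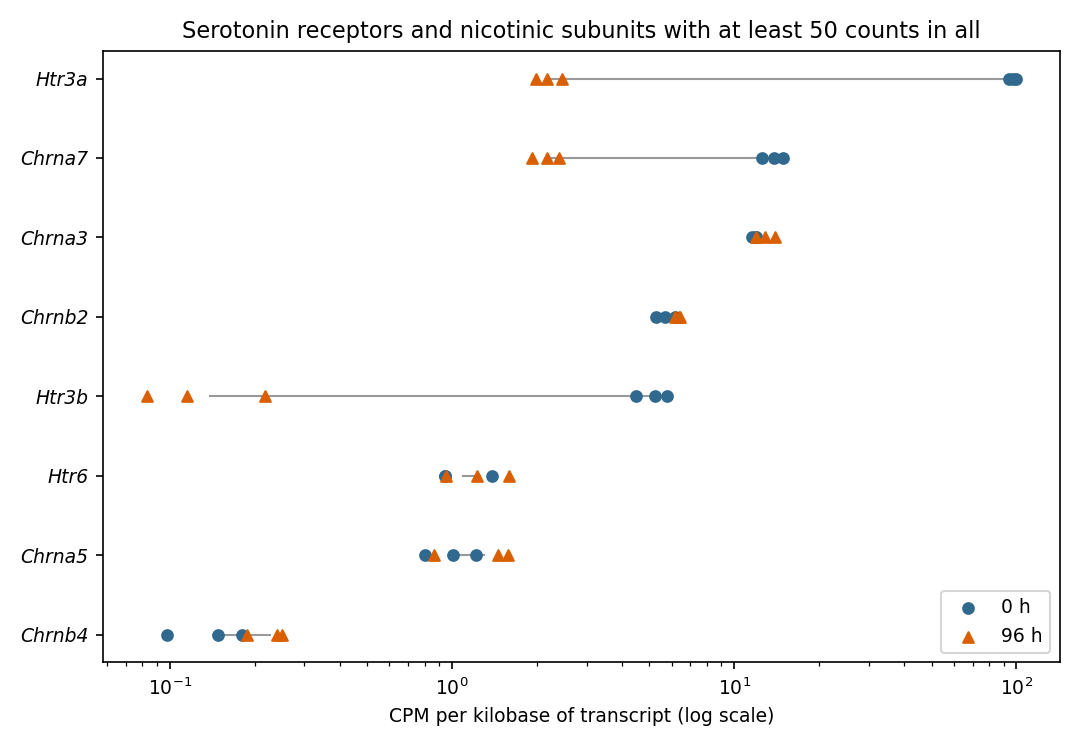
Level per kilobase of transcript (CPM per kilobase, log axis) of the serotonin receptors and nicotinic subunits with at least 50 counts over the 6 libraries, circles for 0 h and triangles for 96 h, 1 symbol per library and a line between the group means. Htr3a, Htr3b and Chrna7 have wide gaps between the states, and Chrna3 and Chrnb2 stay close to their 0 h levels.

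Among the other ligand-gated subunits, 1 nicotinic gene shared the direction of the 5-HT3 pair. Chrna7 had 557, 728 and 499 counts in the 0 h libraries and 75, 77 and 72 in the 96 h libraries (28.6 ± 2.47 and 4.50 ± 0.493 CPM), with no overlap, and fell 6.38-fold (log2 fold change -2.67 ± 0.12, edgeR adjusted p = 4.35e-10). Of 5 tested nicotinic subunits 1 was lower and 0 were higher (edgeR, with 0 higher at an unadjusted p under 0.05, and 0 called higher by DESeq2 or limma-voom), where all tested genes had 28.8% lower and 28.7% higher. Chrna3 (0.12 ± 0.07) and Chrnb2 (0.15 ± 0.07) did not pass, and both changed sign with library size only (-0.13 and -0.10), while with upper-quartile factors both passed as higher (adjusted p = 0.0183 and 0.0122). Chrna3 also passed without 96 h replicate 3 (adjusted p = 0.0461) and Chrnb2 without 0 h replicate 1 (0.038). The remaining 11 nicotinic genes had at most 7 counts in a library. The 22 untested GABA-A and glycine receptor genes had at most 10 counts in a library.

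Genes that help Cys-loop receptors to fold and leave the endoplasmic reticulum moved in both directions. Ric3, a chaperone that assists both 5-HT3 and nicotinic receptor assembly, had 27.9, 24.7 and 26.5 CPM at 0 h and 45.8, 39.9 and 41.3 CPM at 96 h. Every 96 h library was above every 0 h library, and Ric3 rose 1.60-fold (0.68 ± 0.08, edgeR adjusted p = 4.4e-06). Of the 9 tested genes of this list 3 were higher and 2 lower, beside 28.7% higher and 28.8% lower among all tested genes, and these became 1 and 4 under library size only. The lower genes were Ubqln1, a ubiquilin that binds receptor subunits (-0.44 ± 0.05), and Rer1, a protein that retains unassembled subunits (-0.22 ± 0.06, not past the test with upper-quartile factors at adjusted p = 0.0762). The general chaperones Calr (0.13 ± 0.04) and Hspa5 (0.11 ± 0.04) passed as higher by small amounts, and library size only turned both signs (-0.12 and -0.14). Neither passed without the low-count filter, nor when 0 h replicate 1 or either of 96 h replicates 1 and 3 was left out, which left 1 higher gene. Calr was also lost without 0 h replicate 2 (adjusted p = 0.0518), and Hspa5 with DESeq2 size factors (0.0585), with a replicate block (0.0848) and without 0 h replicate 3 (0.121). Tmem35a, the gene of the nicotinic chaperone NACHO, was not tested, with 8 counts in the 0 h group and 20 in the 96 h group, and the Ly6 genes Ly6h and Ly6e had 0 counts.

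Genes that make, move and break down the ligand were mostly at low levels. Of 19 genes 10 were tested, with 4 higher and 1 lower, against 28.7% and 28.8% of all tested genes (library size only gave 2 and 3). Tph1, which carries out the rate-limiting hydroxylation of tryptophan outside the brain, had 7.08, 6.69 and 7.11 CPM at 0 h and 1.80, 1.75 and 2.34 CPM at 96 h. The groups were apart, and Tph1 fell 3.52-fold (-1.82 ± 0.21, edgeR adjusted p = 5.21e-06). Tph2, the neuronal form of that enzyme, had overlapping libraries and did not pass (0.22 ± 0.24, adjusted p = 0.461, and -0.026 with library size only). Ddc, the next enzyme of the pathway, was not tested, with 16 counts in the 0 h group and 3 in the 96 h group. The serotonin transporter Slc6a4 and the degrading enzyme Maoa each had 1 count in all libraries, and Maob had 0.

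The 4 higher genes of that list were carriers and enzymes with wider roles. Slc18a1, a vesicular monoamine transporter, rose 3.35-fold from a low level of 0.456 ± 0.290 to 1.54 ± 0.382 CPM (1.74 ± 0.49, edgeR adjusted p = 0.0079). Gch1, which makes the cofactor of tryptophan and tyrosine hydroxylases, rose 1.41-fold (0.50 ± 0.06). Slc29a4, a low-affinity monoamine transporter of the plasma membrane, rose 1.30-fold (0.38 ± 0.08, lost with library size only at adjusted p = 0.197). Aldh2, an aldehyde dehydrogenase, rose 1.22-fold (0.28 ± 0.08), a call lost with library size only (adjusted p = 0.8), without 0 h replicate 2 (0.0663) and without 96 h replicate 3 (0.0623).

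**Figure D3:**
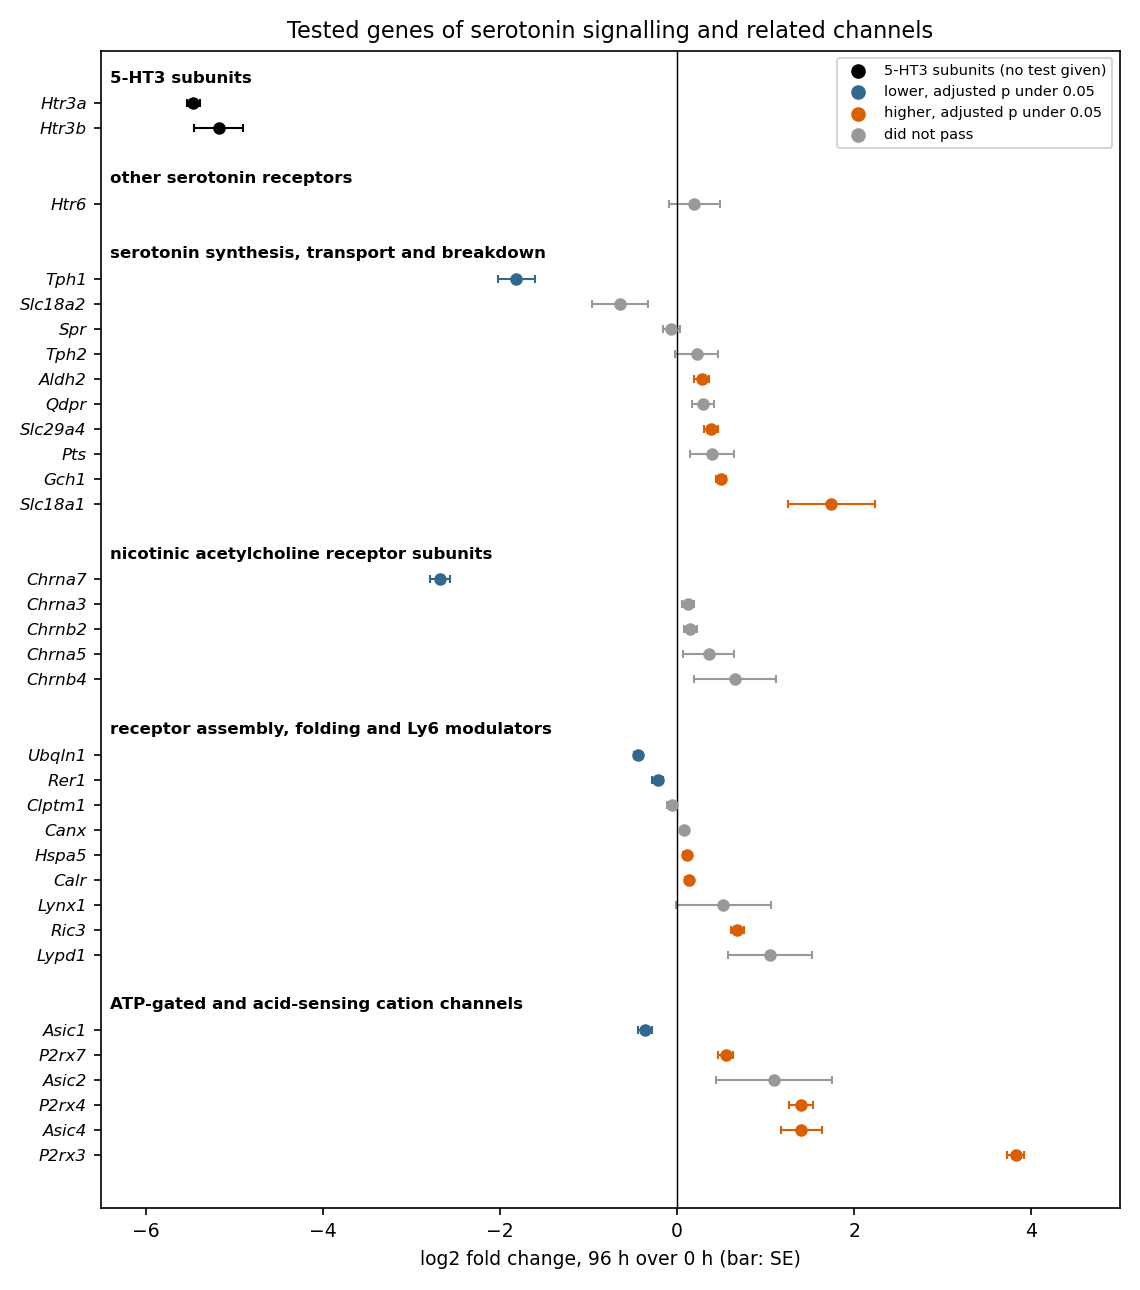
Log2 fold change (96 h over 0 h, bars show SE) of every tested gene in the serotonin, nicotinic, ATP-gated and acid-sensing channel and receptor assembly lists, colored by whether it passed at an edgeR adjusted p under 0.05, with Htr3a and Htr3b in black. The 5-HT3 pair lies below -5, Chrna7 at -2.67 and Tph1 at -1.82, while P2rx3 stands at 3.83.

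Htr3a and Htr3b lie next to each other on mouse chromosome 9, in the same orientation, and the gene order around them was taken from RefSeq (GRCm38.p6). Of the 10 protein-coding genes on each side, 10 of 20 were tested, 2 were higher and 4 lower (28.7% and 28.8% of all tested genes), and the median log2 fold change was 0.03, as over all tested genes. Beyond Htr3a, the nearest 2 genes, Gm32280 and Zbtb16, had 8 and 6 counts over all libraries. The third, Nnmt, which encodes nicotinamide N-methyltransferase, had 0.103, 0.383 and 0.261 CPM at 0 h and 3.26, 3.33 and 3.12 CPM at 96 h and rose 12.4-fold (3.63 ± 0.42, edgeR adjusted p = 5.26e-06). Beyond Htr3b, the deubiquitinase gene Usp28 fell 1.47-fold (-0.55 ± 0.11, edgeR adjusted p = 6.92e-04), Cldn25-ps, protein-coding in RefSeq and matched through its alias Cldn25, had 0 counts, and the kinetochore gene Zw10 fell 1.79-fold (-0.84 ± 0.09).

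Farther out, the adhesion gene Ncam1 fell 2.24-fold (-1.16 ± 0.04), its relative Cadm1 on the other side 1.17-fold (-0.23 ± 0.05), and Gm5617 rose (1.29 ± 0.49, edgeR adjusted p = 0.0368). The call of Gm5617 was lost with library size only (adjusted p = 0.0861) and on leaving out replicate 1 or replicate 3 of either group (0.065 to 0.177). Both higher genes lay beyond Htr3a, lower genes lay on both sides, and the largest fall among the tested neighbors was 2.24-fold against 43.9 and 37.3 for the pair.

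**Figure D4:**
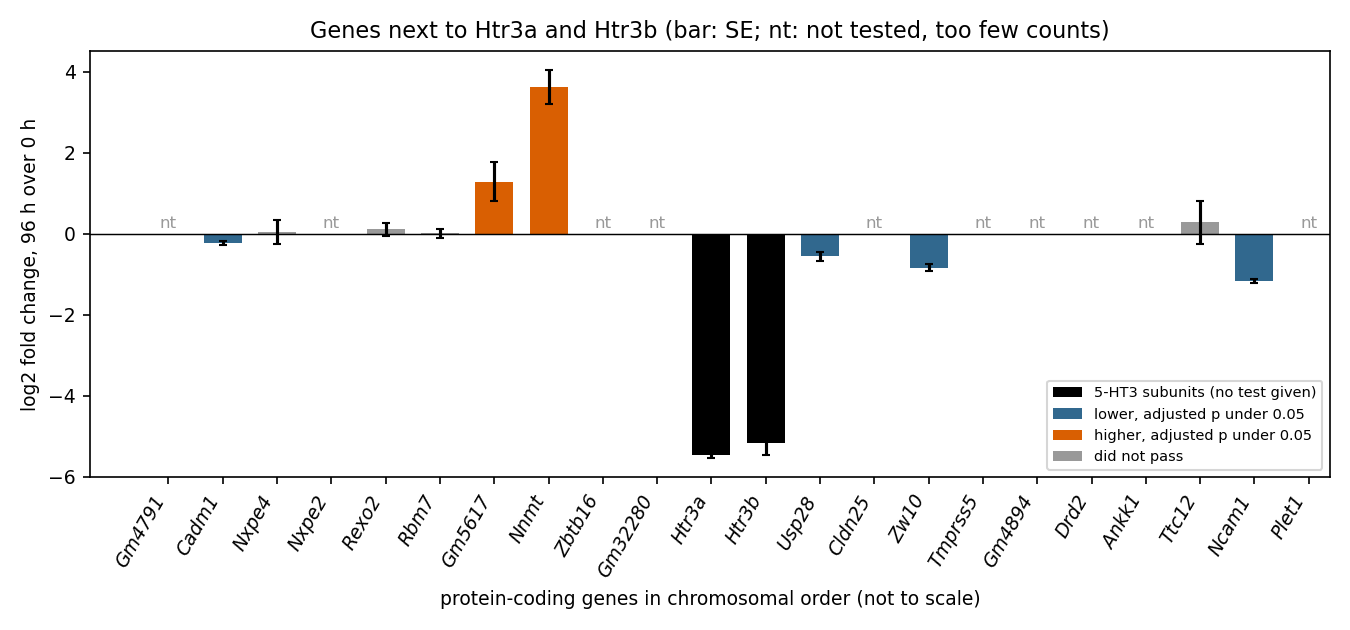
Log2 fold change (96 h over 0 h, bars from 0 with SE) of Htr3a, Htr3b and the 10 protein-coding genes on each side in chromosomal order, with positions not to scale and untested genes marked nt. The pair stands far below its neighbors, with Nnmt at 3.63 on one side and Usp28 at -0.55 on the other.

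Patterns over the 6 libraries were compared by the root mean square difference between centred log2 CPM profiles. A prior count of 2 was added to the counts, which makes falls to few counts, as for Htr3b, look smaller. Mitochondrially encoded genes and predicted or clone-named genes (Gm followed by digits, names ending in Rik) were left out. The genes most like each subunit were then sought among 9699 tested genes with at least 5 CPM in the higher group. The subunits differed from each other by 0.49. For Htr3a none of those genes was nearer than Htr3b, and the next were Ahnak (0.61), Acta2 (0.82), Pdlim3 (0.84), Bambi (1.03) and Tnnt2 (1.04). For Htr3b, Ahnak (0.48) was nearer than Htr3a, and the others were Acta2 (0.61), H1f1 (0.87), Pdlim3 (0.87) and Bambi (0.88). Ahnak encodes a very large scaffold protein and went from 415 ± 15.6 to 22.0 ± 1.10 CPM, and Acta2, smooth muscle actin, from 6.72 ± 0.486 to 0.377 ± 0.0395 CPM. Pdlim3 is an actin-associated LIM protein, Tnnt2 cardiac troponin T, Bambi a decoy receptor of TGF-beta signaling and H1f1 a linker histone. Since the libraries fall into 2 states, likeness here is mostly likeness in the size of the fall.

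**Figure D5:**
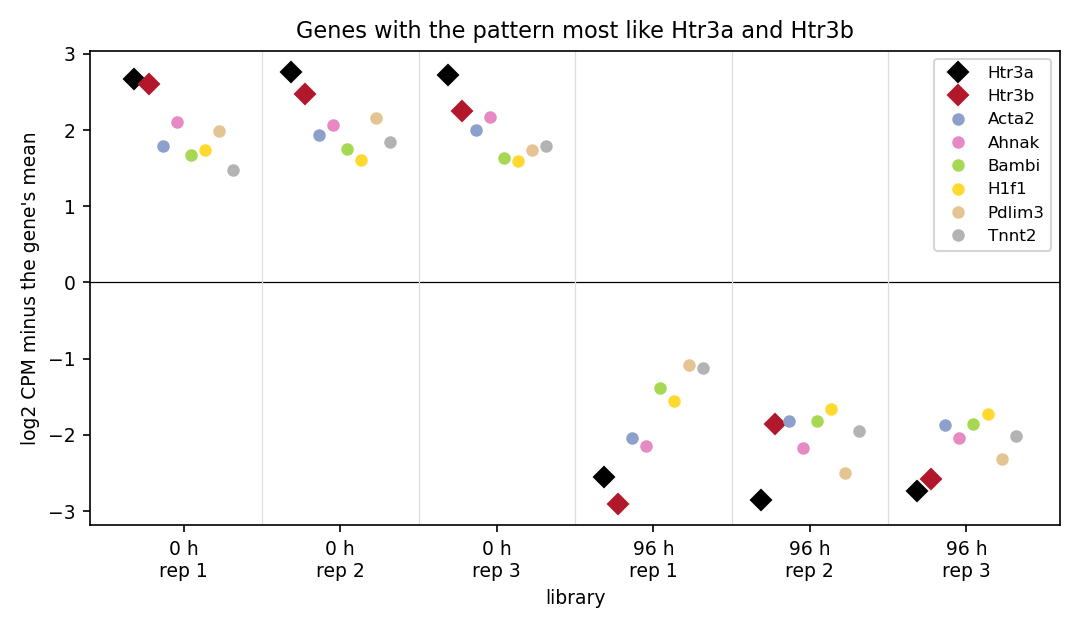
Log2 CPM minus the gene's mean over the 6 libraries for Htr3a and Htr3b (diamonds) and the genes most like them (circles), by library, with points offset sideways for clarity. Htr3a is above 2.5 in all 0 h libraries and below -2.5 in all 96 h libraries, and the other genes span a smaller range.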

How the data were processed

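A stranded kit made paired-end libraries after ribosomal RNA depletion, per the labels' protocols. The mouse build mm39 and the tools Salmon (1.10.1), FastQC (0.12.1) and DESeq2 (1.52.0) come from the submitters' processing notes. What each tool did, which annotation was used and how strand was treated: not given in the sources used here. Values were deposited as estimated counts (expected counts) per gene, not normalised.

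Counts were rounded and tested with edgeR 4.0.16 (R 4.3.3): filterByExpr, TMM factors, quasi-likelihood F test, Benjamini-Hochberg adjustment over 13705 genes, threshold 0.05, no replicate block. The SE is the log2 fold change divided by the square root of F. The fit was tested on simulated data. Transcript and coding lengths are those of the longest protein-coding transcript in GENCODE M21 (GRCm38), matched by symbol. The members and lists were chosen with earlier results of these data known. The text names Htr3a, Htr3b, the serotonin receptors, up to 4 higher and 4 lower passing members of each receptor, assembly or serotonin list, the nearest 3 neighbors per side and those that passed, and the 5 genes most like each member; Chrna3, Chrnb2, Tph2 and the marker genes were named after their values were seen. Alternatives were other scalings and filters, DESeq2 1.42.0, limma-voom (limma 3.58.1), removal of Gm26917, mitochondrial and ribosomal RNA genes, a replicate block and leaving out each library. The design text calls the libraries biological replicates; no pair agreed within sampling noise (chi-square per degree of freedom 6.32 to 12.9). Some genes are not reported here.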

Additional observations from a re-analysis of the deposited data

How the results depend on the processing

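Depth limits Htr3b at 96 h, where 3 to 9 counts per library fix its level. The log2 fold change of Htr3a moved beyond its replicate spread with library size only (-5.71) and ran from -5.55 to -5.40 when each library was left out; that of Htr3b ran from -5.65 to -4.95. Htr3b counts per 100 Htr3a counts ran from 5.74 to 6.61 at 0 h and from 5.03 to 9.42 at 96 h when a library of that group was left out. With coding length the levels per kilobase were 138 and 3.13 for Htr3a and 9.52 and 0.255 for Htr3b. With library size only, 2409 genes were higher, 2 serotonin synthesis and transport genes were higher and 3 lower, 1 assembly gene was higher and 4 lower, 1 sympathetic marker and 1 gene next to the pair were higher, and the log2 fold changes of Htr6 (-0.054), Tph2 (-0.026), Chrna3 (-0.13), Chrnb2 (-0.10), Calr (-0.12) and Hspa5 (-0.14) changed sign, that of Htr6 ranging from -0.015 to 0.39 when each library was left out. This scaling shifts the median gene by -0.25 (log2). With upper-quartile factors 2 nicotinic genes were higher and 1 assembly gene lower. With no low-count filter 1 assembly gene, 1 marker of Htr3a-positive interneurons and 3 glial markers were higher. The cause of these was not tested. When a library was left out, nicotinic genes higher ranged from 0 to 1, assembly genes higher from 1 to 3 and neighbors higher from 1 to 2.

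Labels give both groups replicate numbers 1 to 3, but same-numbered libraries did not deviate together (correlations -0.0136, 0.0144 and -0.00496), and 1 of 3 libraries of each group correlated best with its own number. With a replicate block 3854 genes were higher and 3858 lower, against 3927 and 3942 without it.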

Other observations

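Other channels opened by an extracellular ligand moved mostly the other way from Htr3a and Htr3b. Of 6 tested ATP-gated and acid-sensing channel genes 4 rose by 96 h and 1 fell (28.7% and 28.8% of all tested genes did so), with a median log2 fold change of 1.25 against 0.03 over all tested genes. P2rx3, an ATP receptor subunit that like Htr3a is known from sensory neurons, had 3.71 to 4.70 CPM in the 0 h libraries and 56.1 to 61.5 CPM in the 96 h libraries and rose 14.2-fold (3.83 ± 0.09, edgeR adjusted p = 3.45e-12). P2rx4 rose 2.64-fold (1.40 ± 0.14), Asic4 2.64-fold (1.40 ± 0.23) and P2rx7 1.46-fold (0.55 ± 0.09), and Asic1 fell 1.29-fold (-0.36 ± 0.08). P2rx3 was thus at a lower CPM than Htr3b at 0 h and above Htr3a at 96 h.

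Genes that mark Htr3a-positive interneurons of the cortex were mostly absent from these cells. Of 12 such genes 4 were tested and 2 were lower (28.8% of all tested genes were), the nuclear receptor Nr2f2 (-0.56 ± 0.07) and the cannabinoid receptor Cnr1 (-0.42 ± 0.07). The 8 untested genes had at most 15 counts in a library, and Cck and Prox1 had 0 counts in all. Blood and endothelial markers were also near 0, with 1.53 to 1.60 CPM summed over 7 genes at 0 h and 1.40 to 2.63 CPM at 96 h.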
